A study of Mus musculus with 106 samples.

Results

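The Stat genes encode signal transducers and activators of transcription, and 6 of them (Stat2, Stat3, Stat4, Stat5a, Stat5b and Stat6) were read here out of 21938 protein-coding mouse genes, chosen by gene name. The histone marks H3K27ac, an acetylation found at promoters and enhancers in use, and H3K4me3, a trimethylation found at promoters, had been mapped by chromatin immunoprecipitation sequencing (ChIP-seq) in haematopoietic stem cells (HSCs) and bone marrow-derived macrophages (BMDMs) of control and diabetic mice. The data were 70 deposited peak lists, 35 for each mark. All mice were C57BL/6J, aged 12 to 14 weeks when assigned to the control or diabetic group. Diabetes had been induced with streptozotocin, a toxin of insulin-producing cells, at 42 to 45 mg/kg/day for 5 days. Tissue of diabetic mice was taken 6 weeks after the last injection, at a blood glucose above 13.9 mmol/L.

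The cells came in 3 states. HSCs were marrow cells left after depletion of cells bearing CD3, CD4, B220, Ter119 or Gr1, so they were enriched and not purified for stem cells. Unstimulated BMDMs had been grown from marrow for 7 days in L929-conditioned medium with 5 mmol/L glucose, from control and diabetic mice alike. Stimulated BMDMs had received lipopolysaccharide (LPS) at 100 ng/mL and interferon-γ (IFN-γ) at 10 ng/mL for 16 hours. Each mark had 6 libraries in every group, except 5 in diabetic unstimulated BMDMs, where replicate 3 was not analysed here. The labels number the libraries but do not say which mouse each came from, so p-values measure the spread between libraries.

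Stat proteins wait in the cytoplasm until a cytokine receptor and its Jak kinase phosphorylate them, then pair and enter the nucleus to switch on target genes. Stat2 serves type I interferon with the partner Irf9, Stat3 serves interleukin-6 and interleukin-10, and Stat4 serves interleukin-12, chiefly in T and natural killer cells. Stat5a and Stat5b, close copies of each other, serve interleukin-3 and colony-stimulating factors, and Stat6 serves interleukin-4 and interleukin-13 in alternatively activated macrophages.

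On the GRCm38 build, Stat4 lay at chr1:51987148-52107189 on the plus strand, and Stat6 and Stat2 lay on the plus strand of chromosome 10 at chr10:127642986-127660957 and chr10:128270559-128292849. The other 3 genes stood side by side on chromosome 11, within 159 kb: Stat5b at chr11:100780731-100850724 on the minus strand, Stat5a at chr11:100859351-100885169 on the plus strand and Stat3 at chr11:100885098-100939540 on the minus strand. Stat5b and Stat5a started 8627 bp apart and ran away from each other, and the tails of Stat5a and Stat3 overlapped by 72 bp. Of the distal regions described below, 15 per mark therefore lay in the neighbourhood of more than 1 of these genes and were counted once.

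The sequences of 5 stretches are shown as a description. They are 2 promoters with a match to a motif that Stat proteins or their partners are known to bind, and the summits of 3 intragenic regions. The H3K27ac of these regions differed most between cell states or with stimulation. All are written 5′ to 3′ on the strand of the gene, and capitals mark motif matches. The motifs searched, on either strand, were the gamma-activated site TTCNNNGAA (GAS), the same with a wider gap TTCNNNNGAA, the interferon-response type TTTCNNTTTC, GATA as AGATAA, Runx as TGTGGT and the PU box as GAGGAA; promoters show only the first 3 in capitals.
Stat2 promoter, chr10:128270248-128270497, 250 bases before the RefSeq start: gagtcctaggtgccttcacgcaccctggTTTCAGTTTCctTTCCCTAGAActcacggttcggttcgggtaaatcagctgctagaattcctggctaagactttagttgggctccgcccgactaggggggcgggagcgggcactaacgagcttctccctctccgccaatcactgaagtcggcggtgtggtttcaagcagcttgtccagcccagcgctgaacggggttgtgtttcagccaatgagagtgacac
Stat4 promoter of the marked start, chr1:52007990-52008239, 250 bases before the RefSeq start: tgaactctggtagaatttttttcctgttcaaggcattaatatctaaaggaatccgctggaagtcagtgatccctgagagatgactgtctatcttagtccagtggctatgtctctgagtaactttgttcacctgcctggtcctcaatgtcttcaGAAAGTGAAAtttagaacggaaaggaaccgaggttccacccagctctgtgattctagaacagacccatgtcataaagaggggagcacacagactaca
Stat3 3′ part, intron, chr11:100891875-100892174, minus strand: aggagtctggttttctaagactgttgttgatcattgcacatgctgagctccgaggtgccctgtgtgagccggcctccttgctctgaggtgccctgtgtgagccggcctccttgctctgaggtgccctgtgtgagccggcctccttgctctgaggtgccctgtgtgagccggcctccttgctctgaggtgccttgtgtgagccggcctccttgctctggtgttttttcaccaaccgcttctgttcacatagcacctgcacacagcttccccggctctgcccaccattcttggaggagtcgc
Stat5b intron, chr11:100814446-100814745, minus strand: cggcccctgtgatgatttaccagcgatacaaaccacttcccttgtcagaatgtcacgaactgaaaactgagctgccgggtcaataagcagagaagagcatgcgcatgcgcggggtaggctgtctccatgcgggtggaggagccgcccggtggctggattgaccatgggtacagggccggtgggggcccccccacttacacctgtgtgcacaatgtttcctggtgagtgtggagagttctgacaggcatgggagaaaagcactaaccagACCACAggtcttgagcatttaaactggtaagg
Stat3 middle of the gene, partly exon, chr11:100907867-100908166, minus strand: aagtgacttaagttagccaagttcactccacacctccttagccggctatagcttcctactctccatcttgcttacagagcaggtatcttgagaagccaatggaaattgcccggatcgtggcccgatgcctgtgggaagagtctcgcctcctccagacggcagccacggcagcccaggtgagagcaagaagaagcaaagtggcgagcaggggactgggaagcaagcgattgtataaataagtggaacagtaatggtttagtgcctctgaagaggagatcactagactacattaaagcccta
The Stat2 promoter held an interferon-response type match and a wide GAS match, and the Stat4 promoter held an interferon-response type match. Of 32851 RefSeq promoters (GRCm38.p6), 2.98% held the interferon-response type, 7.02% the GAS and 5.85% the wide GAS in these 250 bases. All 6 genes matched the RefSeq table, with 9 promoters in all, and no GAS was found in any of the 9. The Stat3 3′ window held no match to any of the 6 motifs, and 140 of its bases formed a repeat of a 33-base unit. The Stat5b intron window held 1 Runx match.

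Each promoter, taken as 1 kb either side of any annotated start, was given the strongest peak −log10 p within it, and promoters were ranked within each library, where rank 1 is the strongest. Differences are given on the scale of −log2 rank, so that +1 means a rank number halved. They were tested with limma across all promoters of a mark, and a difference is called at a Benjamini-Hochberg adjusted p under 0.05. The lists held from 13730 to 277213 peaks (median 110154.5), with 40.8% to 79.3% of promoters marked, and the read depth behind them is unknown. Most markers went with the macrophage and stem cell labels in H3K27ac. Of 8 stem and progenitor promoters, 6 were called higher in HSCs than in unstimulated BMDMs, beside 14.7% of all promoters. Of 8 macrophage promoters, 4 were called lower, beside 13.5%. Meis1 (-0.20, adjusted p = 0.0556, limma) and Lyz2 (0.08, adjusted p = 0.645) went the other way and were not called. In H3K4me3, 0 of 8 stem and progenitor and 1 of 8 macrophage promoters (lower) were called, beside 10% of all promoters. In H3K27ac, 3 control BMDM libraries went against their labels. On 200 elements that separated stimulated from unstimulated diabetic BMDMs, none of them near a Stat gene, the difference in mean −log2 rank was 0.53 to 2.11 in 5 control stimulated libraries but -1.94 in replicate 5. In 4 control unstimulated libraries it was -1.74 to -0.77, but replicates 5 and 6 gave 1.09 and 0.24. These 3 libraries were picked by their response to stimulation in H3K27ac elements, so values of that mark without them are given as a description, beside some of the results they touch.

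The promoters of the 6 genes formed a wide order of H3K27ac. Stat3 was the strongest, marked in 35 of 35 libraries at ranks from 34 to 2744 (median 754, within the top 3.44% of genes). It was the strongest of the 6 in 26 libraries, and it lay among the top 1000 peaks of the whole list in 23. Stat5b followed at 346 to 5686 (median 1721) and led in 8 libraries. Stat6 ranked 521 to 9154 (median 5416), Stat5a 1619 to 8867 (median 6210) and Stat2 1214 to 9943 (median 7213). The ranges of these 3 overlapped, and Stat5a was stronger than Stat6 in 13 of 35 libraries and Stat2 stronger than Stat5a in 14. Stat4 stood apart at the weak end, marked in 31 libraries at ranks from 7352 to 18203 (median 12134), and was the weakest of the 6 in 33.

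**Figure D1:**
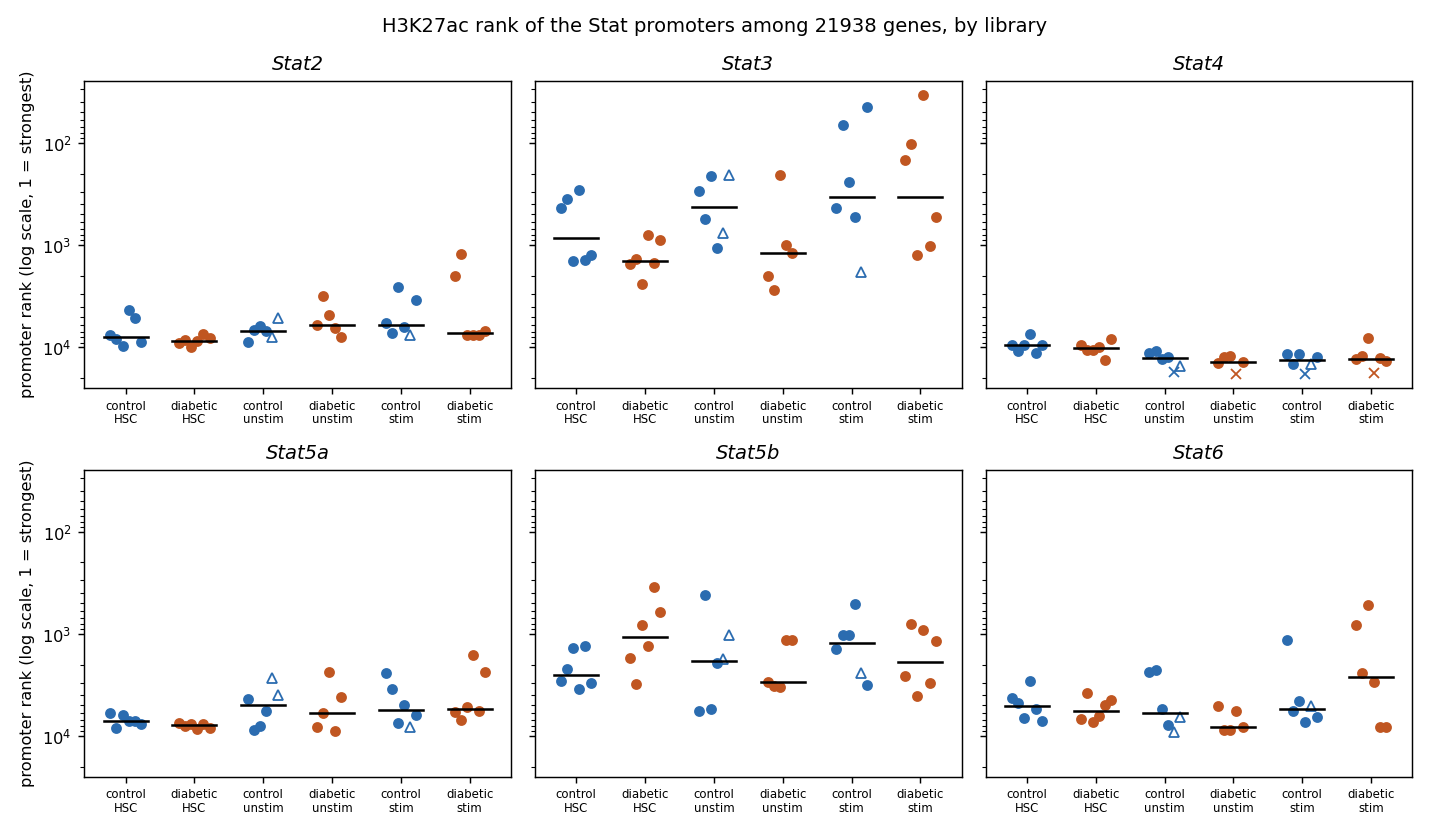
H3K27ac rank of each Stat promoter among 21938 genes (y axis, log scale, 1 = strongest at the top) in the 6 groups (x axis), 1 point per library. Blue is control, orange diabetic, black lines are group medians, open triangles are the 3 control BMDM libraries that went against their labels and crosses have no promoter peak. Stat3 is the strongest gene, and Stat4, the weakest, sits higher in HSCs than in unstimulated BMDMs.

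The order differed for H3K4me3. Stat5b led, at ranks from 21 to 7918 (median 2128), and was the strongest of the 6 in 19 of 35 libraries. Stat3 reached a median rank of 5649, against a median of 754 for its H3K27ac. Stat2 ranked 275 to 17638 (median 7614) and Stat5a 1154 to 15442 (median 7675), and the 2 could not be told apart in this order, with Stat2 stronger in 21 of 35 libraries. Stat6 was marked in every library but only among the top 10000 peaks in 10, at ranks from 1614 to 13756 (median 10976). Stat4 had a peak in 20 libraries and ranked 6078 to 18810 (median 15856). Ranks of the 2 marks come from separate lists and were not tested against each other.

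**Figure D2:**
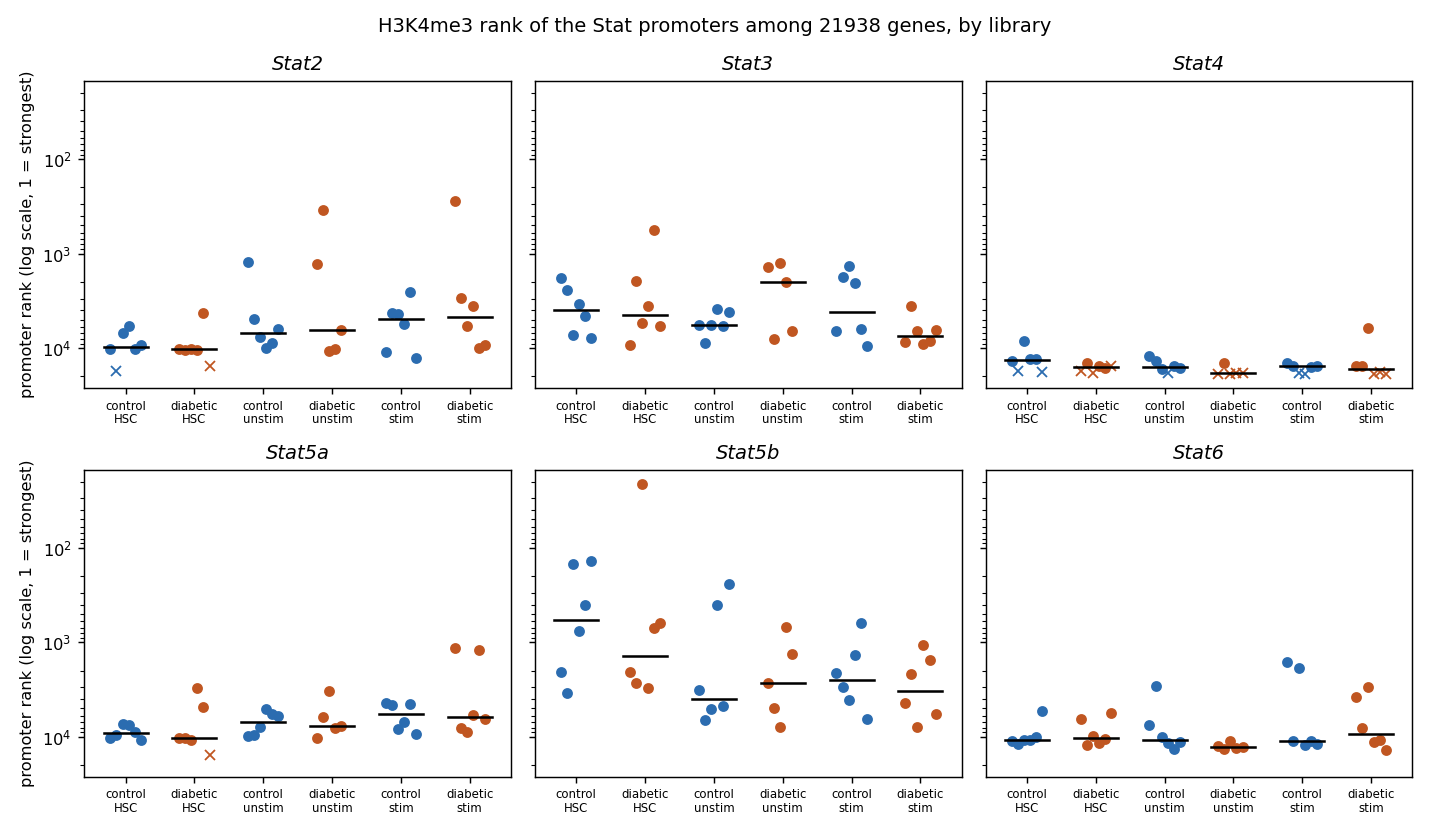
H3K4me3 rank of each Stat promoter among 21938 genes (y axis, log scale, 1 = strongest at the top) in the 6 groups (x axis), 1 point per library, coloured as control (blue) or diabetic (orange) with group medians as black lines and crosses for no peak. Stat5b has the best median rank, and its libraries spread over more than a decade of rank in every group but diabetic stimulated BMDMs (1078 to 7918).

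The peaks sat at the main starts, with the exception of Stat4. For Stat2, Stat3, Stat5a, Stat5b and Stat6 the strongest H3K27ac promoter peak lay at the main start in 35 of 35 libraries, and its median width ran from 716 bp (Stat2) to 2038 bp (Stat5b). The outermost start of Stat4, at chr1 position 51987148, carried neither mark in any list. Its protein-coding start at position 52008243 carried H3K27ac in 29 lists and H3K4me3 in 20. Stat5b also has a protein-coding start inside the gene, at chr11 position 100822528, which carried H3K27ac in 32 of 35 lists and H3K4me3 in 7.

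Which Stat promoters differed between stem cells and macrophages was asked first. Stat4 was the only member called, and it was higher in HSCs. In control HSCs it ranked 7352 to 11350 (median 9511) and in diabetic HSCs 8286 to 13178 (median 10253), with a peak in all 12 libraries. In control unstimulated BMDMs it ranked 10912 to 17528 (median 12663), and in the 5 diabetic ones 14265, 12472, 12048, 18141 and 13908. In each disease group, 5 of 6 HSC libraries lay above every unstimulated BMDM library. The difference was 0.46 ± 0.11 (SE; adjusted p = 0.0024, limma), and it was 0.46 in control mice (exact permutation p = 0.00649) and 0.45 in diabetic mice (exact permutation p = 0.00866). It stayed called without the 3 doubted libraries, at 0.38 (adjusted p = 0.0146). It was not called when peaks were ranked on fold enrichment (0.84, adjusted p = 0.0732) or when only the top 10000 peaks of a list were read (0.32, adjusted p = 0.0661).

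Of all H3K27ac promoters tested, 28.2% were called in this comparison (14.7% higher and 13.5% lower in HSCs), so the 1 of 6 members called was not above the background. Of 5 T cell promoters, 2 were called higher in HSCs, Cd3d by 0.38 and Lck by 0.21. Cd8a (0.15, adjusted p = 0.137), Cd3e (0.06, adjusted p = 0.464) and Cd4, which went the other way (-0.11, adjusted p = 0.395), were not called by limma. From 2 to 5 of the 5 T cell promoters had a peak in an HSC library and 1 to 4 in an unstimulated BMDM library (mean −log2 rank -13.8 to -13.5 against -14.0 to -13.6), and Cd4 had none in any diabetic HSC library. Of the natural killer promoters, Klrb1c differed by 0.06 (adjusted p = 0.621). Erythroid promoters were higher in HSCs in 4 of 4 cases, with all 4 marked in every HSC library against 2 or 3 in unstimulated BMDMs (mean −log2 rank -13.3 to -12.6 against -13.7 to -13.5), while of 4 B cell promoters none was called by limma and none had an unadjusted p under 0.05 (39.6% of all promoters had one). Of the 2 neutrophil promoters tested, Mpo was called higher in HSCs (0.39). From 1 to 3 of the 4 neutrophil promoters had a peak in an HSC library and 0 to 2 in an unstimulated BMDM library (mean −log2 rank -14.0 to -13.7 against -14.1 to -13.9), and S100a8 had none in either. The lineage depletion was directed at T, B, erythroid and granulocyte surface proteins, and the part of such cells in the Stat4 difference was not tested. In libraries made from many cells, more cells with a mark and more mark per cell cannot be told apart.

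The other 5 members were not called for H3K27ac between HSCs and unstimulated BMDMs. Stat3 differed by -0.51 (95% interval -1.70 to 0.67), Stat5a by -0.51 (-1.01 to -0.02), Stat2 by -0.34 (-0.86 to 0.17), Stat6 by 0.17 (-0.58 to 0.92) and Stat5b by 0.39 (-0.44 to 1.23). The Stat5a interval missed 0, but its adjusted p was 0.12. Without the 3 doubted libraries the Stat5a difference was -0.35 ± 0.25 (adjusted p = 0.316), that of Stat6 was 0.01 ± 0.41, and none of these 5 was called. For Stat2 the difference was -0.66 in diabetic mice (exact permutation p = 0.00433, unadjusted), where 5 of 6 HSC libraries lay below every BMDM library, and -0.03 in control mice (exact permutation p = 0.905). Whether the 2 disease groups differed in this was not tested. For H3K4me3 none of the 6 was called in this comparison by limma, against a background of 10% of promoters, and 2 had an unadjusted p under 0.05, as had 27.5% of all promoters. They were Stat5b, at 1.73 ± 0.75 (adjusted p = 0.133, exact permutation p = 0.0552), and Stat2, at -1.20 ± 0.54 (adjusted p = 0.148, exact permutation p = 0.0211). Stat5b ranked 138 to 3484 in control HSCs (median 578) and 240 to 6667 in control unstimulated BMDMs (median 3984), so these groups overlapped.

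**Figure D3:**
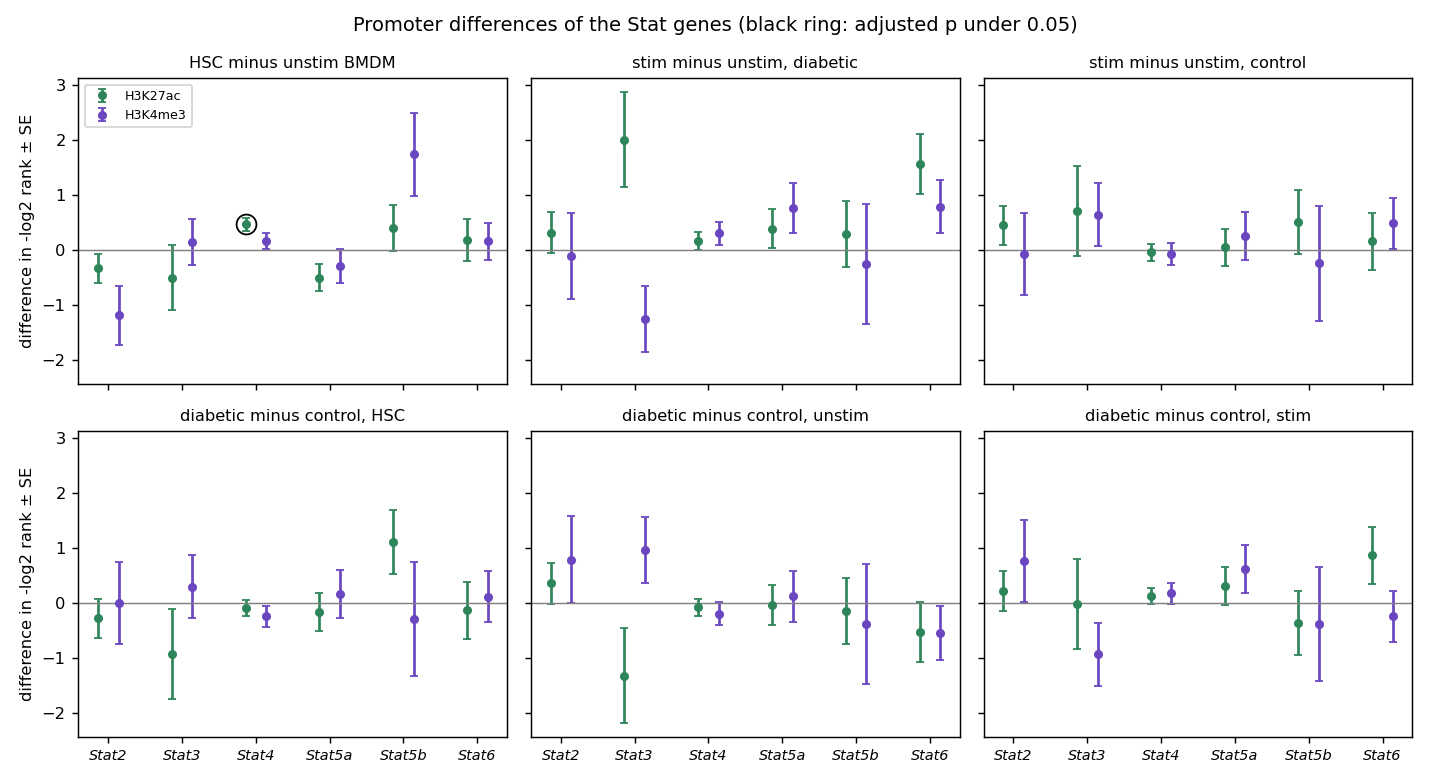
Differences in −log2 promoter rank ± SE (y axis) of the 6 Stat genes (x axis) for H3K27ac (green) and H3K4me3 (purple) in 6 comparisons, 1 panel each. Positive means stronger in the group named first; the black ring marks Stat4 in HSCs against unstimulated BMDMs (0.46), the only member called.

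With LPS and IFN-γ, no Stat promoter was called in either disease group for either mark by limma, and 2 of 6 had an unadjusted p under 0.05 for H3K27ac, both in diabetic BMDMs, beside 17.3% of all promoters. Among 19 tested promoters of Stat target genes, 1 was called higher and 1 lower for H3K27ac in diabetic BMDMs. They were Cxcl10, a chemokine gene and known target of interferon signalling (0.53, adjusted p = 0.0353), and the cyclin gene Ccnd1 (-0.95, adjusted p = 0.0233). In control BMDMs none of the 19 was called. The H3K27ac background of calls was 1.72% of promoters in diabetic and 0% in control BMDMs. The largest estimates were for Stat3 and Stat6 in diabetic BMDMs. Stat3 ranked 1987, 2744, 205, 996 and 1201 in the 5 diabetic unstimulated libraries and 34 to 1252 (median 337) in the 6 stimulated ones, so the groups overlapped. Its difference was 2.00 ± 0.86 (unadjusted p = 0.0268, adjusted p = 0.221, limma; exact permutation p = 0.104).

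Stat6, which serves the opposite, interleukin-4 arm, ranked 5062, 8641, 8683, 5710 and 8168 in diabetic unstimulated BMDMs and 521 to 8220 (median 2667) in stimulated ones. Of the stimulated libraries, 4 lay above every unstimulated one and 2 lay among them. The difference was 1.55 ± 0.54 (unadjusted p = 0.00772, adjusted p = 0.132, limma; exact permutation p = 0.0693). It was called only in the run without diabetic stimulated replicate 6 (1.90, adjusted p = 0.0489), and in no other alternative run. In control BMDMs it was 0.15 ± 0.52, and the difference of the responses between the disease groups had a 95% interval of -0.10 to 2.90 (adjusted p = 0.805). Without the 3 doubted libraries the control value was -0.14 ± 0.61 and the difference of the responses 1.69 ± 0.83 (adjusted p = 0.965). The other 4 members differed by 0.16 to 0.38 in diabetic BMDMs (adjusted p = 0.622 to 0.861), and the 6 members by -0.05 to 0.70 in control BMDMs, where no unadjusted p was under 0.05 (5.42% of all promoters had one). Without the 3 doubted libraries the 6 control differences ran from -0.18 to 1.31, the highest being Stat3 at 1.31 ± 0.91 (adjusted p = 0.667), and none was called. For H3K4me3 the background was 0% in both, and 1 of 6 members had an unadjusted p under 0.05 in diabetic BMDMs (6.49% of all promoters had one), Stat3 at -1.26 ± 0.60 (adjusted p = 0.756). Its response in diabetic BMDMs minus that in control BMDMs was -1.89 ± 0.83 (unadjusted p = 0.0304, adjusted p = 0.982, limma; exact permutation p = 0.0234), against a background of calls of 0% for this difference in both marks and 4.69% of H3K4me3 promoters with an unadjusted p under 0.05.

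Diabetes was compared within each cell state. No member was called by limma for either mark in HSCs, unstimulated or stimulated BMDMs, and no unadjusted p was under 0.05. The background was 0.00576% of H3K27ac promoters in HSCs and 0% in the other comparisons. Without the 3 doubted libraries no member was called for H3K27ac in unstimulated or stimulated BMDMs either. The lowest limma p belonged to Stat5b in HSCs, which ranked 1307 to 3484 (median 2552) in control and 346 to 3084 (median 1076) in diabetic libraries. This was a difference of 1.10 ± 0.58 (unadjusted p = 0.0651, adjusted p = 1.00, limma; exact permutation p = 0.0693), and the groups overlapped. The intervals remained wide: for Stat3 in unstimulated BMDMs the H3K27ac difference was -1.33 with a 95% interval of -3.05 to 0.39.

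Regions inside and around the genes were read as elements, runs of 200 bp bins covered by peaks in at least 6 of 35 libraries, ranked within each library among all 165887 H3K27ac or 175930 H3K4me3 elements. A library without a peak in an element takes the mean of the ranks left over, so high ranks can stand for no peak. Within the gene bodies and 20 kb flanks lay 70 distal H3K27ac and 45 distal H3K4me3 elements, more than 1 kb from any start. Over both marks, 11 entries of these lay inside other annotated genes and are counted but not described. A further 27 elements per mark lay within 1 kb of an annotated start of a member, internal starts included. Reading these one by one was decided after seeing that internal starts were held by fewer libraries.

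Between HSCs and unstimulated BMDMs, 15 distal H3K27ac elements differed, and all 15 were higher in HSCs. They made up 21.4% of the 70, against 23.2% of all distal elements (13% higher and 10.3% lower), so the count was not above the background. Of the 15, 9 had a peak in at most 5 of the 23 BMDM libraries. Since an element needed 6 libraries, these 9 were listed only through the HSC libraries and had to be higher there, so the count and its single direction are no result about the Stat genes. The other 6 had peaks in 6 to 23 BMDM libraries. Among elements held by at least 10 libraries, 13 were called. By gene, the 15 were 11 of the 32 elements in the neighbourhood of Stat5b, 4 of 15 for Stat5a, 3 of 11 for Stat4, 1 of 17 for Stat3, and 0 of 5 and 0 of 6 for Stat2 and Stat6. Elements between neighbouring genes count for each.

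The element with the largest distal difference lay in a Stat5b intron at chr11:100814201-100815200, whose summit sequence is printed above. It ranked 8712 to 30955 in control HSCs (median 10853) and 8262 to 25390 in diabetic HSCs (median 14690), held by all 12. In control unstimulated BMDMs it ranked 18183 to 114230 (median 59930), and in the 5 diabetic ones 22100 and 20484, with no peak in the other 3. The difference was 2.04 ± 0.37 (adjusted p = 8.72e-05, limma), 2.16 in control (exact permutation p = 0.00433) and 1.91 in diabetic mice (exact permutation p = 0.013). It held without the 3 doubted libraries (adjusted p = 0.000101). In stimulated BMDMs the element was held by 11 of 12 libraries.

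This element belonged to a row of called ones around the internal Stat5b start. Between chr11 positions 100814201 and 100829200, 8 distal elements were called, with differences of 0.73 to 2.04. Of them, 4 were listed only through HSC libraries (those starting at positions 100817401, 100818401, 100826001 and 100826801), and the other 4 had peaks in 6 to 17 BMDM libraries. The element over the internal start itself, chr11:100821601-100823200, was called at 1.11 ± 0.37 (adjusted p = 0.025). It was held by 12 of 12 HSC libraries at ranks from 8747 to 24242. A second row of 3 called elements lay near the main start, between positions 100844801 and 100847600, at 0.65 to 1.25, and all 3 were listed only through HSC libraries, each with a peak in 3 BMDM libraries. Without the 3 doubted libraries, chr11:100826001-100826600 (adjusted p = 0.0574) and chr11:100828601-100829200 (adjusted p = 0.0885) were no longer called, and the call at the internal start was lost without any 1 of 3 unstimulated BMDM libraries, diabetic replicates 4 and 6 and control replicate 4 (adjusted p = 0.056 to 0.069). By contrast the promoter element of Stat5b was held by all 35 libraries and differed by 0.48.

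**Figure D4:**
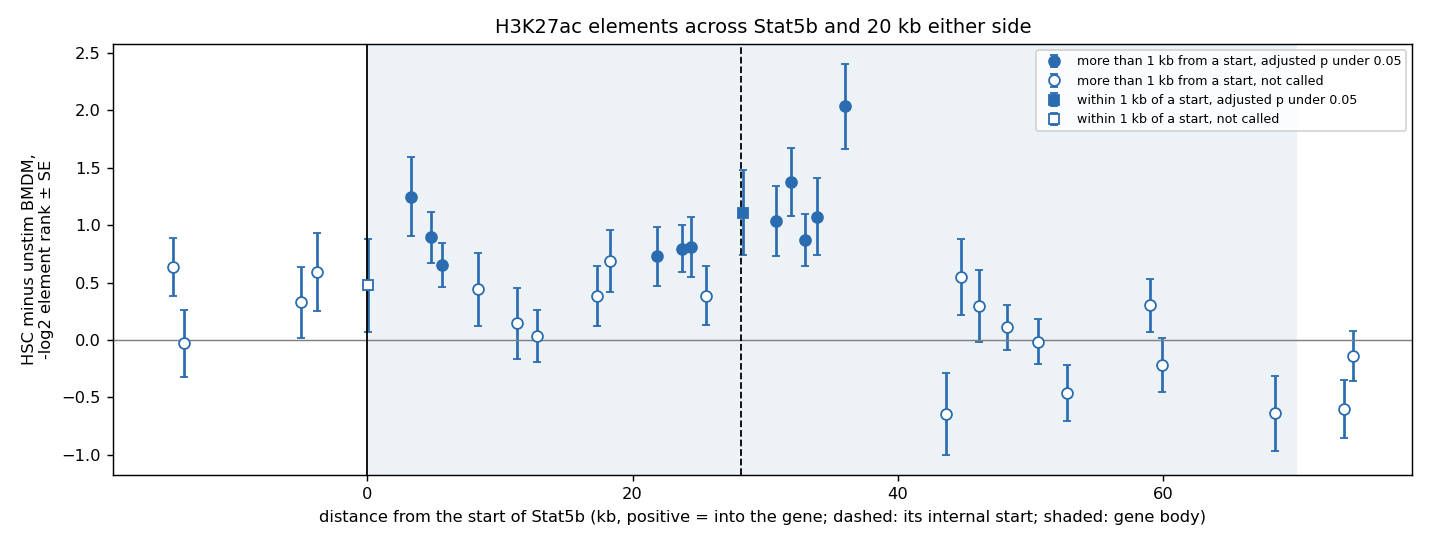
Difference in −log2 element rank, HSC minus unstimulated BMDM, ± SE (y axis) for the H3K27ac elements of Stat5b and 20 kb either side, by distance from its start in kb (x axis, positive into the gene, which is shaded). Filled symbols are called, squares lie within 1 kb of a start and the dashed line is the internal start; called elements sit near both starts and reach 2.04, but 7 of the 11 distal ones were listed only through HSC libraries.

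Outside Stat4, the distal elements held by the most libraries of each gene were not called. In Stat5b, chr11:100797001-100799000 was held by 35 of 35 libraries (-0.46, adjusted p = 0.169) and chr11:100806801-100807400 by 32 (-0.65, adjusted p = 0.195). In Stat3, chr11:100935001-100935800 was held by 33 (0.76, adjusted p = 0.115), in Stat5a chr11:100873601-100876000 by 31 (-0.35, adjusted p = 0.456), and near Stat2 chr10:128262201-128262800 by 27 (0.27, adjusted p = 0.613). In Stat5a the distal element chr11:100881201-100882000, listed only through HSC libraries (7 HSC and 5 BMDM libraries), was called at 0.60 (adjusted p = 0.0282) but not without the 3 doubted libraries (adjusted p = 0.0514).

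Stat4 carried 3 called distal elements, all in introns: chr1:52023001-52023600 (0.84), chr1:52024601-52026000 (0.94) and chr1:52045801-52047400 (0.86). The first was listed only through HSC libraries, with a peak in 6 of them and in 0 of 23 BMDM libraries. The last was held by 35 of 35 libraries, at 8067 to 20545 in control HSCs and 12331 to 35192 in control unstimulated BMDMs. It was not called on fold enrichment (0.48, adjusted p = 0.332). The element over the marked Stat4 start, chr1:52008001-52009600, ranked 6966 to 17839 in control HSCs (median 9861) and 17094 to 103287 in control unstimulated BMDMs (median 34116). It differed by 2.03 (adjusted p = 4.84e-05, limma).

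Among the 27 start elements, 7 were called for H3K27ac between HSCs and unstimulated BMDMs, 5 higher and 2 lower in HSCs (25.9%, against 27.6% of all start elements, 15.9% higher and 11.7% lower). The largest difference of any member element lay in the 3′ part of Stat3, chr11:100890001-100893400, which also covers the start of a retained-intron transcript. It ranked 6379 to 8752 in control HSCs (median 7420) and 6334 to 9272 in diabetic HSCs (median 8086). In control unstimulated BMDMs it ranked 28150 to 62789 (median 42440), and in the 5 diabetic ones 68319, 67064 and 58751, with no peak in the other 2. All 12 HSC libraries therefore lay above all 11 unstimulated BMDM libraries, and the difference was 2.93 ± 0.26 (adjusted p = 8.65e-11, limma). The exact permutation p was 0.00216 in control and in diabetic mice, the smallest that these groups can give. Its neighbour at chr11:100885201-100889800, at the tail of Stat3, differed by 1.61 (adjusted p = 3.63e-05), again with 6 of 6 HSC libraries above all unstimulated BMDM libraries in each disease group. The Stat3 promoter itself moved the other way without being called (-0.51). The part of the repeat in the Stat3 window in these values was not tested.

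The other start elements higher in HSCs were that of Stat4, that of the internal Stat5b start, and chr11:100879001-100880800 inside Stat5a (1.26, adjusted p = 0.0028). The 2 lower ones lay inside Stat6 and Stat2. The Stat6 element, chr10:127650401-127653600, ranked 36162 to 73680 in control HSCs (median 63035) and 58180 to 114982 in diabetic HSCs, where 4 of 6 libraries had no peak. In control unstimulated BMDMs it ranked 12241 to 103287 (median 25539) and in the 5 diabetic ones 13330, 15857, 23024, 25109 and 28988. The difference was -1.68 ± 0.28 (adjusted p = 2.70e-05, limma), and in diabetic mice all 6 HSC libraries lay below all 5 BMDM libraries. The Stat2 element, chr10:128281601-128282200, was held by 1 of 12 HSC libraries, 7 of 11 unstimulated and 11 of 12 stimulated BMDM libraries, and differed by -0.97 between HSCs and unstimulated BMDMs (adjusted p = 0.0274). Since an element needed 6 libraries, this one could be listed only with BMDM libraries. The 11 stimulated libraries alone were enough, so the direction against unstimulated BMDMs was not fixed by the listing. Such listing still favours elements stronger in BMDMs, so its call and direction are not read as a result about Stat2. That call was lost without any 1 of 4 unstimulated BMDM libraries, replicates 2 and 5 of each disease group (adjusted p = 0.0515 to 0.0771).

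**Figure D5:**
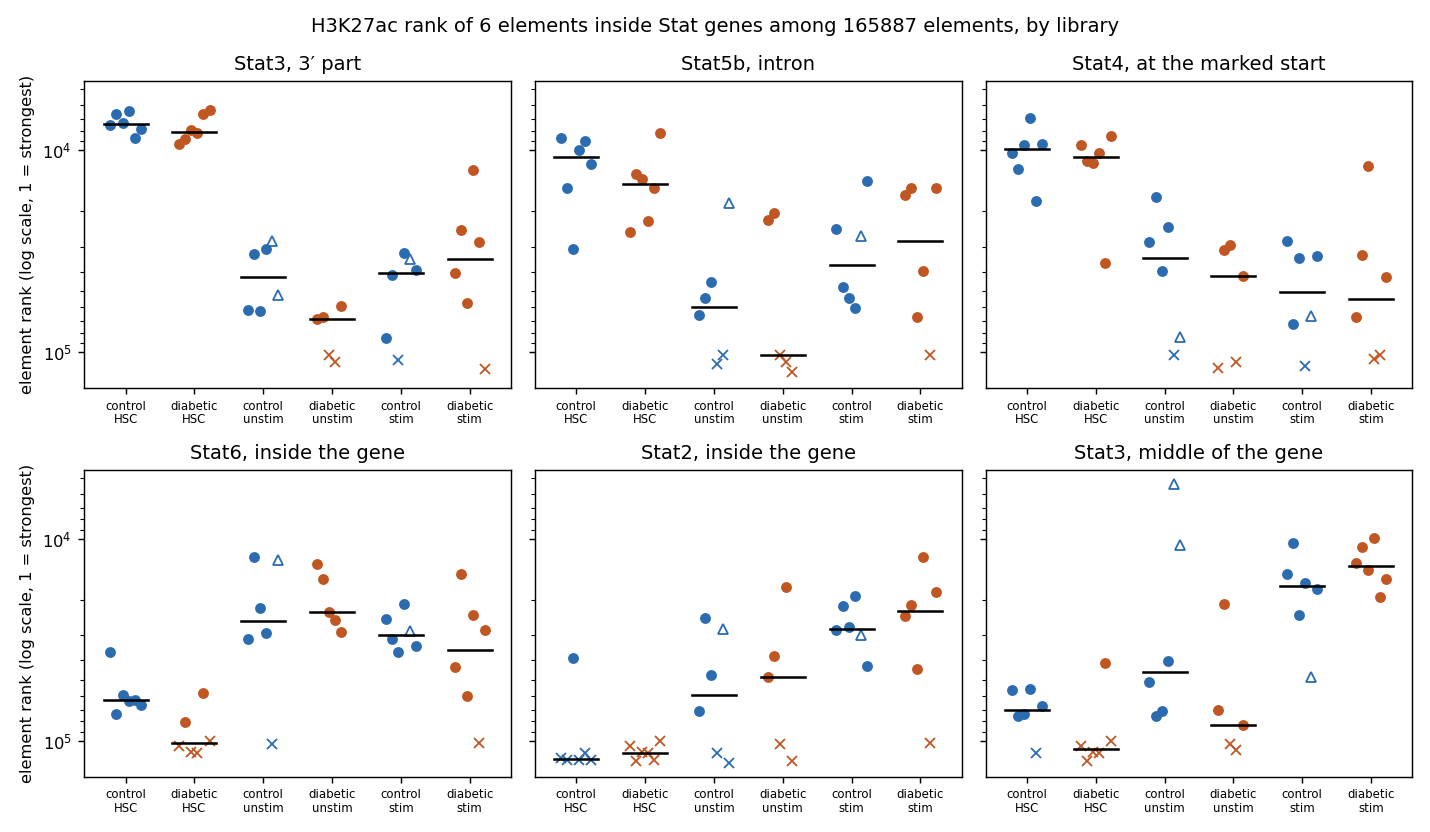
H3K27ac rank of 6 elements inside Stat genes among 165887 elements (y axis, log scale, 1 = strongest at the top) in the 6 groups (x axis), 1 point per library, coloured as control (blue) or diabetic (orange). Black lines are medians, crosses have no peak and open triangles are the 3 doubted libraries; the Stat3 3′ element is in the top 9272 in all HSC libraries, and in the middle of Stat3 the triangles lie on the other side from their group.

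For H3K4me3, 1 of 45 distal elements (2.22%, against 4.01% of all) was called between HSCs and unstimulated BMDMs, chr11:100873601-100876000 in Stat5a. It was lower in HSCs by 1.12 on the log2 scale (difference -1.12, adjusted p = 0.0246, limma), held by 5 of 12 HSC and 11 of 11 unstimulated BMDM libraries. Since an element needed 6 libraries, this one could be listed only with BMDM libraries, of which 22 held it. These include stimulated libraries, so the direction against unstimulated BMDMs was not fixed by the listing. Such listing still favours elements stronger in BMDMs, so its call and direction are not read as a result about Stat5a. The element was not called on fold enrichment (adjusted p = 0.158) or without the 3 control BMDM H3K4me3 libraries that bear the numbers of those doubted in H3K27ac (adjusted p = 0.0513). None of the 27 start elements was called for H3K4me3 by limma (lowest adjusted p = 0.0503, 7 with an unadjusted p under 0.05), against 7.83% of all start elements called and 27.6% with an unadjusted p under 0.05.

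With stimulation 1 element was called (1 of 27 start elements, 3.7%), in the middle of Stat3 at chr11:100907201-100908400, which overlaps an exon and the start of a retained-intron transcript. In the 5 diabetic unstimulated libraries it ranked 70458, 20922 and 83356, with no peak in the other 2, and in the 6 diabetic stimulated libraries 9882 to 19432 (median 13677). The groups did not overlap, and the difference was 2.32 ± 0.50 (adjusted p = 0.014, limma; exact permutation p = 0.00216, the smallest possible). Among all start elements, 1.37% were called in this comparison. It was not called when elements were ranked on fold enrichment (2.10, adjusted p = 0.151).

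In control BMDMs the same element ranked 5332 to 74934 (median 45563) unstimulated and 10489 to 48364 (median 17110) stimulated, a difference of 0.60 ± 0.48 (adjusted p = 0.997). The 2 strongest unstimulated values, 5332 and 10778, were replicates 5 and 6, and the weakest stimulated value, 48364, was replicate 5, which are the 3 libraries that went against their labels. Without them the 4 unstimulated libraries ranked 40070 to 74934 and the 5 stimulated ones 10489 to 23692, a difference of 1.84 ± 0.38. That value is a description with no test, since the libraries were left out for their response to stimulation. The difference of the response between diabetic and control BMDMs was 1.72 ± 0.69 with all libraries (adjusted p = 0.792), so a different response was not shown, and 0.48 ± 0.52 without the 3. In HSCs the element was held by 6 of 12 libraries.

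No other Stat element was called with stimulation or with diabetes by limma, nor any for a difference of the stimulation response between disease groups. For each comparison, the number of member elements with an unadjusted p under 0.05 stands beside the share of all like elements with one and then the share of all like elements called. For distal H3K27ac elements it was 7 of 70 with stimulation in diabetic BMDMs (11.5% with one, 0.97% called) and 4 in control BMDMs (5.47% and 0.00157%). With diabetes it was 2 in HSCs (5.14% and 0.0681%), 5 in unstimulated (5.49% and 0.000783%) and 1 in stimulated BMDMs (4.31% and 0%).

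For H3K27ac start elements it was 7 of 27 with stimulation in diabetic BMDMs (16% and 1.37%) and 2 in control BMDMs (5.6% and 0%), and with diabetes 2 in HSCs (3.83% and 0.0314%), 3 in unstimulated (6.12% and 0.00262%) and 1 in stimulated BMDMs (4.37% and 0%). For distal H3K4me3 elements it was 3 of 45 with stimulation in diabetic BMDMs (6.03% and 0.00731%) and 1 in control BMDMs (4.38% and 0%). With diabetes it was 3 in HSCs (3.9% and 0.00219%), 3 in unstimulated (4.49% and 0%) and 2 in stimulated BMDMs (6.56% and 0.00219%). For H3K4me3 start elements it was 5 of 27 (7.64% and 0.00256%) and 1 (4.2% and 0%) with stimulation, and 1 (4.8% and 0.00256%), 0 (4.39% and 0%) and 2 (6.46% and 0%) with diabetes. For the difference of the responses it was 2 distal (5.54%) and 2 start elements (6.38%) in H3K27ac, and 4 (4.7%) and 2 (5.25%) in H3K4me3, with 0% called.

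The 6 motifs were counted at the 23 H3K27ac elements called in any comparison, in 300 bases on the median summit. In 5 of the 23, under 0.5 of the library summits lay inside these 300 bases, and in Stat5a the window of chr11:100879001-100880800 held 0 of 20. The PU box was present in 8, Runx in 4, the GAS in 2 and each of the other 3 in 1. In 300 bases on the middle of 127671 distal H3K27ac elements, 25.9% held the PU box, 20.9% Runx, 6.49% the GAS, 5.07% the wide GAS, 2.27% the interferon-response type and 8.21% GATA. A match is a description of the letters and not a site of binding.

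The wider pathway was read from a list of 63 genes around the Stat proteins: Jak kinases, cytokine receptors, partners, inhibitors and targets. For H3K27ac, 60 could be tested between HSCs and unstimulated BMDMs, and 8 ranked higher and 15 lower in HSCs (38.3%, beside 28.2% of all promoters). Receptors contributed 2 higher and 7 lower of 20, targets 2 and 7 of 19, inhibitors 4 and 1 of 13, and of the 4 Jak kinases and 4 partners none was called by limma (2 and 0 at an unadjusted p under 0.05, beside 39.6% of all promoters). The list medians were -0.42 for receptors, -0.29 for targets and 0.17 for inhibitors, against -0.004 over all promoters. The largest differences were those of Pim1, a kinase gene and Stat5 target (-4.57), Ifngr2, a subunit of the IFN-γ receptor (-3.22), and Il10rb, a subunit of the interleukin-10 receptor (-2.77). With stimulation of diabetic BMDMs, 1 rose and 1 fell of 60 (3.33%, beside 1.72% of all promoters): Cxcl10, above, and the cyclin gene Ccnd1 (-0.95). For H3K4me3, 2 of 58 were higher and 2 lower in HSCs (6.9%, beside 10% of all promoters), with the repressor gene Bcl6 (1.53), the survival gene Mcl1 (1.10) and the receptor gene Csf2ra (-0.98) the largest. With stimulation no pathway gene was called by limma for H3K4me3. In diabetic BMDMs 12 of 58 had an unadjusted p under 0.05 for this mark, beside 6.49% of all promoters, and in control BMDMs 2 (3.68%). For H3K27ac it was 12 of 60 in diabetic (17.3%) and 4 in control BMDMs (5.42%). With diabetes no pathway gene was called by limma for either mark. For H3K27ac, 2, 2 and 0 of 60 had an unadjusted p under 0.05 in HSCs, unstimulated and stimulated BMDMs (2.71%, 5.69% and 4.36% of all promoters), and for H3K4me3 2, 4 and 3 of 58 (4.65%, 3.88% and 5.35%).

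Across the 35 H3K27ac libraries, which differ in list length and belong to 6 groups whose levels enter every correlation, Spearman correlations between members ran from -0.34 (Stat2 and Stat4) to 0.42 (Stat2 and Stat3), and were -0.07 for the neighbours Stat5a and Stat5b and 0.41 for Stat3 and Stat5a. Of 14838 genes, those most like each member were Cytip (0.86) and Gm28044 (0.84) for Stat4, Mrpl22 (0.82) and Supt6 (0.80) for Stat6, and Sh3tc1 (0.80) and Rgs14 (0.76) for Stat2. For Stat5a they were Hilpda (0.73) and Hmcn2 (0.69), for Stat3 Inpp5b (0.72) and Uhrf1bp1 (0.70), and for Stat5b Ostm1 (0.61) and Wipi1 (0.60).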

How the data were processed

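ChIP-seq for H3K27ac and H3K4me3 gave 70 peak lists; 36 input samples were not used here. Per the submitters' processing notes, the tools were cutadapt 1.8, Trim Galore 0.3.3, FastQC 0.11.3, Bowtie2 2.2.6, Picard 2.18.14 and 2.19.2, bedtools 2.19.1 and MACS2 2.2.7.1, on GRCm38 (mm10). The deposited lists hold, per peak, a score, a fold enrichment ratio, a −log10 p and a −log10 q, as the authors' peak caller gave them for each library; the least significant peak of a list had a −log10 q near 1.30. They hold no read counts, so depth is unknown.

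Peaks sharing coordinates were merged (7828714 peaks from 9511856 summits). Each of 21938 protein-coding genes (GENCODE vM21) took its strongest −log10 p within 1000 bp of any start, since the caller's p depends on depth and ranks were compared only within a library; unmarked genes shared the mean of the remaining ranks. Promoters marked in at least 3 libraries (17373 for H3K27ac, 17652 for H3K4me3) were fitted with limma 3.58.1 in R 4.3.3, 1 fit per mark over 6 groups, with Benjamini-Hochberg adjustment over all features; the fit was tested on simulated data. Elements were fitted in the same way. The study's methods name no test for these peaks. Exact permutation tests were two-sided and unadjusted, with all arrangements of the libraries; the smallest p that 2 groups can give is 0.00216.

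The members, pathway and marker lists were chosen with earlier results of these data known. All 6 members were named; of pathway genes, at most the 3 largest called differences per comparison; as most alike, the 2 genes with the highest correlation; of elements, those called and those held by most libraries. Promoter sequences came from RefSeq and windows from the RefSeq genome, both GRCm38.p6. Alternatives were ranking on fold, other promoter widths, stricter peaks, other scales and filters, a replicate block and leaving out libraries.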

Additional observations from a re-analysis of the deposited data

Results flagged for a closer look

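In 10 of 72 groups of promoter ranks, 1 library stood far from the others of its group, always on the strong side. With normally distributed values, a library would stand this far out in about 1 of 20 groups. Ranks have a limit at the weak end, where unmarked promoters share a rank, so that rate need not hold here. Whether 10 of 72 is more than chance would give was not tested. For H3K4me3, Stat2 ranked 4266 in diabetic HSC replicate 5 (the others 10233 to 15442), 1223 in control unstimulated BMDM replicate 1 (4946 to 10078) and 275 in diabetic stimulated BMDM replicate 1 (2935 to 10074). Stat3 ranked 3566 in diabetic stimulated BMDM replicate 2 (6452 to 9148). Stat4 ranked 14550 in diabetic unstimulated BMDM replicate 2 (18392 to 18810) and 6078 in diabetic stimulated BMDM replicate 3 (15374 to 18762). Stat5b ranked 21 in diabetic HSC replicate 3 (622 to 3057). Stat6 ranked 5385 in control HSC replicate 6 (10065 to 12027) and 2892 in control unstimulated BMDM replicate 2 (7594 to 13348). For H3K27ac, Stat6 ranked 1148 in control stimulated BMDM replicate 1 (4557 to 7324). None of these groups entered a called promoter difference.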

How the results depend on the processing

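Read depth is unknown, so what the lists could have missed cannot be stated. No called difference changed its direction under any alternative run. For member promoters the number called in H3K27ac between HSCs and unstimulated BMDMs went from 1 to 0 on fold enrichment and with the top 10000 peaks, and was 1 without each library in turn. With stimulation in diabetic BMDMs it ranged from 0 to 1 without each library. For distal H3K27ac elements the number called between HSCs and unstimulated BMDMs ranged from 13 to 18 without each library, and with stimulation in diabetic BMDMs from 0 to 1. The latter was chr10:128262201-128262800 near Stat2 (lower with stimulation, adjusted p = 0.0339), called without diabetic stimulated replicate 2. For H3K4me3 the distal count went from 1 to 0 on fold enrichment and without the 3 control BMDM libraries numbered as those doubted in H3K27ac, and ranged from 1 to 2 without each library. For start elements, read after seeing the data, the count with stimulation in diabetic BMDMs went from 1 to 0 on fold enrichment and ranged from 1 to 2 without each library, the Stat3 3′ element joining without diabetic stimulated replicate 6 (1.44, adjusted p = 0.0257). In control BMDMs it went from 0 to 1 without the 3 doubted libraries, which were picked by their response to stimulation. For H3K4me3 start elements between HSCs and unstimulated BMDMs it went from 0 to 1 on fold enrichment and ranged from 0 to 2 without each library. The cause was not tested. Over all H3K27ac promoters, leaving out the 3 doubted libraries moved the calls with stimulation in control BMDMs from 0 to 103, with the same condition. Of called elements, chr11:100828601-100829200 lost its call without any 1 of 10 libraries (adjusted p = 0.0525 to 0.0772), chr11:100881201-100882000 without any 1 of 5 HSC libraries (0.0509 to 0.0571), and both on fold enrichment (0.057 and 0.0508). Replicate numbers were not taken as pairing: over 68 same-numbered pairs the correlations of deviations were -0.22 to 0.345 (median 0.01), though 10 of the 22 pairs of unstimulated and stimulated BMDMs exceeded 0.1 and 20 exceeded the median of their other-numbered pairs. With a replicate block the Stat4 difference was 0.44 (adjusted p = 0.0024), the Stat3 stimulation element 2.40 (adjusted p = 0.0213), and no count of members called moved by over 1.5 times.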
